A study of Mus musculus with 20 samples.

Results

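Mm016 and Mm037 are 2 of the 120 mouse probes on the Sterolgene V1 array, each printed at 3 spots. They were chosen for a moderate rise after TCPOBOP in livers that have the constitutive androstane receptor (CAR), against loss of that rise in livers without it. The normalized ratios of these 20 arrays therefore chose the probes, so the 4 genotype responses and the differences made by CAR are given as descriptions with no test, and the rule has no numeric threshold. The deposited tables carry the array's own identifiers for both probes but no gene, and 0 of the 4 identifiers were found among the RefSeq gene names, so no gene is named.

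Each array compared total RNA of 1 TCPOBOP-treated liver, labelled with Cy5, with RNA pooled from 6 vehicle-treated livers of the same genotype, labelled with Cy3. The treated livers came from mice lacking both CAR and the pregnane X receptor (PXR) (CARPXRKO, 4 arrays), lacking CAR (CARKO, 6 arrays), lacking PXR (PXRKO, 4 arrays) or wild type (WT, 6 arrays). All mice were males of strain C57BL/6J aged 9 to 12 weeks, injected intraperitoneally with 10 mg/kg TCPOBOP or with 5% DMSO in corn oil, and livers were taken at 12 h. Each genotype was taken to have 1 pool, so the spread between control animals was not measured. Without a dye swap, any probe-specific dye effect stays in each response. The protocol text of 4 arrays (CARPXRKO 3, CARKO 3, WT 3 and WT 5) gives vehicle for the treated channel, against their titles and treatment labels, and on CARPXRKO 3 the pool is labelled as PXR deficient.

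CAR and PXR are nuclear receptors that bind DNA together with the retinoid X receptor and switch on genes for drug-oxidizing enzymes, conjugating enzymes and transporters in liver. TCPOBOP is a strong agonist of mouse CAR, and the target sets of CAR and PXR overlap. The genotypes allow a response to be compared with and without CAR, and with and without PXR.

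Both probes gave signal above background on nearly every array. All 60 spots of each probe were free of flags and saturated pixels. On CARPXRKO 1, CARKO 3 and CARKO 4 no spot of the whole array was flagged. All 3 spots of Mm016 lay more than 2 background SDs above local background on 19 of 20 arrays in Cy5 and on 19 in Cy3, and those of Mm037 on 20 and 19. By a looser count, at least 2 unflagged spots above that limit, between 43 and 103 of the 120 probes passed per array in Cy5. Between 35 and 94 did in Cy3, the lowest count being on CARPXRKO 1. On that array 1 of the 3 Mm037 spots lay above the limit in Cy3. The 82 probes with values on at least 3 arrays of every genotype entered the tests. The spread between the 3 spots of an array (pooled SD 0.20 for Mm016 and 0.31 for Mm037 on the log2 scale) was smaller than that between arrays of a genotype (pooled SD 0.47 and 0.56). The spots of Mm016 lie in block 2 and those of Mm037 in block 1 of the array.

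The Mm016 ratio was high with CAR and near or below 0 in most livers without it. Its loess-normalized log2 ratio of treated over pool was 0.64, −0.33, −0.54 and −0.53 on CARPXRKO 1 to 4. Among the 6 CARKO arrays it ran from −0.14 through a median of −0.022 to 0.87. In PXRKO it was 1.67, 1.43, 1.06 and 0.56 on arrays 1 to 4, and in WT it ran from 0.23 through a median of 0.74 to 1.43. All 4 PXRKO and all 6 WT values were above 0, while 1 of 4 CARPXRKO and 3 of 6 CARKO values were. The groups overlapped through CARPXRKO 1 and CARKO 5, the only CAR-deficient arrays above 0.20 for this probe. On CARKO 5 the 3 spots themselves ranged from 0.26 to 1.25, whereas on CARPXRKO 1 they lay between 0.62 and 0.68.

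Genotype means of Mm016 were −0.19 ± 0.56 in CARPXRKO (SD, n = 4), 0.12 ± 0.38 in CARKO (n = 6), 1.18 ± 0.48 in PXRKO (n = 4) and 0.84 ± 0.47 in WT (n = 6). The CARPXRKO mean was −0.47 without array 1, and the CARKO mean was −0.030, with its sign turned, without array 5. As geometric mean folds of treated over pool, the responses were 2.27-fold in PXRKO and 1.79-fold in WT. In PXRKO it held rank 3 from the top among the 82 tested probes and in WT rank 7. In CARKO it held rank 22 and in CARPXRKO rank 61, where the median of all tested probes was 0.0034 and 0.0073.

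Mm037 was also high with CAR, and it was below 0 in every liver without both receptors. On CARPXRKO 1 to 4 its log2 ratio was −0.42, −0.38, −0.61 and −1.35. The CARKO arrays ran from −0.072 through a median of 0.31 to 0.47, with 5 of 6 above 0. PXRKO 1 to 4 gave 1.13, 0.42, 1.15 and 1.12. In WT the ratio ran from −0.15 on WT 1 through a median of 1.01 to 2.23 on WT 6, the widest range of the 4 genotypes for this probe. CARKO and CAR-bearing arrays overlapped, since PXRKO 2 and WT 2 (0.42 and 0.46) lay inside the CARKO range and WT 1 below it.

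Mean ratios of Mm037 were −0.69 ± 0.45 in CARPXRKO (SD, n = 4), 0.27 ± 0.20 in CARKO (n = 6), 0.95 ± 0.36 in PXRKO (n = 4) and 1.07 ± 0.88 in WT (n = 6). They correspond to a level 1.62-fold lower in treated liver than in the pool for CARPXRKO, and to a level higher in treated liver by 1.94-fold in PXRKO and 2.10-fold in WT. Its rank from the top among 82 probes was 80 in CARPXRKO, 11 in CARKO, 8 in PXRKO and 6 in WT. The CARPXRKO mean rests partly on 1 spot of array 4, at −2.79 against a mean of −0.64 for the other 2 spots. With that spot left out, an alternative chosen after seeing the data, the CARPXRKO mean was −0.51.

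These responses are relative to the other mouse probes of the same array, because the loess curve sets the bulk of probes to 0. Before normalization Mm016 was at 1.86, 0.33, −0.030 and 0.11 on CARPXRKO 1 to 4 and ran from −0.49 through a median of 0.044 to 0.44 in CARKO. It was at 2.51, 1.29, 3.16 and 1.03 on PXRKO 1 to 4, the highest group. In WT it was below 0 on arrays 1 to 4 (−1.34, −1.08, −1.68 and −0.48), while arrays 5 and 6 gave 1.46 and 1.34. Mm037 was at 0.30, 0.061, −0.20 and −0.93 on CARPXRKO 1 to 4 and ran from −1.44 through a median of 0.49 to 0.76 in CARKO. It was at 2.10, 0.048, 3.24 and 1.62 on PXRKO 1 to 4, and at −1.54, −0.97, −0.66, −0.57, 1.38 and 2.20 on WT 1 to 6. The unnormalized median of Mm037 was thus higher in CARKO (0.49) than in WT (−0.62), the opposite order to the normalized ratios. The median of all mouse probes before normalization lay between −2.03 and −1.19 on the first 4 WT arrays, and on the last 2 it was −0.10 and −0.050. Against that array median, Mm016 was higher on 5 of 6 WT arrays (median difference 0.56), and Mm037 on 5 of 6 (0.99), WT 1 being the exception for both. The within-array ranks of the unnormalized values do not depend on where an array is centred. Mm016 ranked 1 from the top of 120 probes on CARPXRKO 1, against 76, 103 and 91 on CARPXRKO 2 to 4. On CARKO 1 to 6 it ranked 70, 9, 68, 58, 12 and 47, on PXRKO arrays between 3 and 11, and on WT 1 to 6 it ranked 56, 18, 28, 10, 4 and 8. Mm037 ranked 89, 91, 110 and 111 on CARPXRKO 1 to 4, and 6, 2, 20, 10, 71 and 19 on CARKO 1 to 6. It ranked 8, 21, 4 and 5 on PXRKO 1 to 4 and 69, 12, 5, 13, 5 and 4 on WT 1 to 6, where 86 to 107 probes had a value. Its median rank was 14.5 in CARKO and 8.5 in WT, and it lay within the top 20 on 5 of 6 CARKO arrays and on 5 of 6 WT arrays.

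The WT arrays also differed widely in the authors' deposited table. Its log2 values for Mm016 in WT were −0.93, −0.59, −0.33, −0.15, 2.34 and 2.19 in order of replicate number. For Mm037 the authors' deposited table gave −1.18, −0.53, 0.62, −0.19, 1.90 and 2.925 on WT 1 to 6. In the authors' deposited table all 4 PXRKO values of both probes were above 0, from 1.13 to 2.17 for Mm016 and from 0.088 to 1.77 for Mm037. Whether the shift of whole WT arrays came from labelling, RNA amount or scanning was not tested.

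Signals of the 2 channels were examined separately. The background-subtracted Cy5 intensity of Mm016 had a median of 2505.5 on CARPXRKO, 1729 on CARKO, 6022.5 on PXRKO and 2735 on WT arrays, and the Cy3 intensity of its pools a median of 1631.5, 1739, 1085.5 and 4183 in the same genotypes. For Mm037 the Cy5 medians were 723, 1030.5, 1924 and 1030.5 and the Cy3 medians 727.5, 781, 471.5 and 1499 in CARPXRKO, CARKO, PXRKO and WT. These raw intensities include differences in labelling and scanning between arrays, which equalizing the average intensity across arrays removes in part. After that step the log2 Cy5 level of Mm016 was 11.21 ± 0.30 in CARPXRKO, 10.69 ± 0.46 in CARKO, 12.29 ± 0.41 in PXRKO and 11.95 ± 0.56 in WT (SD over arrays), so the CAR-bearing livers held the 2 highest means. The log2 Cy3 level of its pools was 11.40 ± 0.26, 10.57 ± 0.18, 11.11 ± 0.11 and 11.11 ± 0.49 in CARPXRKO, CARKO, PXRKO and WT.

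For Mm037 the normalized log2 Cy5 level was 9.52 ± 0.22 in CARPXRKO, 9.87 ± 0.21 in CARKO, 11.01 ± 0.50 in PXRKO and 10.80 ± 0.88 in WT. Its pools were at 10.21 ± 0.28, 9.60 ± 0.080, 10.05 ± 0.15 and 9.73 ± 0.31 in Cy3 in the same genotypes. For both probes the CARPXRKO pool had the highest Cy3 mean and the CARKO pool the lowest. Arrays of a genotype were taken to share 1 pool. If they do, these Cy3 spreads are technical, and no test between pools can be made. The labels do not settle this, and in WT the Cy3 level of Mm016 ran from 10.62 to 11.71. The part that a pool's own level has in the CARPXRKO and CARKO ratios cannot be told apart from the response of the treated livers.

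The differences made by CAR loss, which the choice of probes used, had these sizes. Mm016 was lower in CARKO than in WT by a log2 difference of −0.72 ± 0.25 (SE) and Mm037 by −0.80 ± 0.30. Set against PXRKO, CARPXRKO was lower by −1.37 ± 0.31 for Mm016 and by −1.65 ± 0.37 for Mm037. All 4 CARPXRKO values of Mm037 (−1.35 to −0.38) lay below all 4 PXRKO values (0.42 to 1.15), a separation shown by 14.6% of the 82 probes, and below all 6 WT values, which 17.1% of probes shared. For Mm016 neither pair was separate, nor were CARKO and WT for either probe, as they were for 7.32% of the probes. Leaving out CARPXRKO 1 moved its difference from PXRKO to −1.65, and leaving out CARKO 5 moved its difference from WT to −0.87.

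The CARKO difference depends on what the arrays are centred on. Centred on the calibration control spots, CARKO minus WT was 0.032 for Mm016 and −0.079 for Mm037, so the sign of Mm016 turned, with the median of all 82 probes at 0.68. Relative to that median both probes were lower in CARKO, by −0.65 and −0.76, against −0.76 and −0.84 after loess. From the authors' deposited table the difference was −0.37 for each probe, with a median of 0.32 over 68 probes.

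Whether PXR loss alters the response where CAR is present was also tested. The probes were chosen by their normalized ratios, for a rise in PXRKO and WT alike, though not on this difference. That rule favours probes with similar ratios in PXRKO and WT, so this test is not independent of the choice either. Mm016 was at 1.18 in PXRKO and 0.84 in WT, a log2 difference of 0.34 ± 0.28 (SE, 95% interval −0.25 to 0.93, limma adjusted p = 0.48). Mm037 was at 0.95 in PXRKO and 1.07 in WT, a difference of −0.11 ± 0.34 (95% interval −0.82 to 0.60, limma adjusted p = 0.88). These intervals leave out variation between pools. Neither probe passed the threshold, in a comparison where 3.66% of the 82 probes did (1.22% higher and 2.44% lower in PXRKO). Centred on the calibration control spots, the Mm016 difference was 1.55 and passed (limma adjusted p = 0.020), with the median of all probes at 0.85. In that setting 30 of the 82 probes passed, all of them higher in PXRKO. The Mm037 difference changed sign with calibration centring (1.04), in the authors' deposited table (0.69), with median centring (0.18), in odd replicates (0.17) and without the 4 arrays of conflicting text (0.11), and passed the threshold in none of these.

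Where CAR was absent, the additional loss of PXR went with a lower Mm037 ratio. Mm037 averaged −0.69 in CARPXRKO and 0.27 in CARKO, a log2 difference of −0.96 ± 0.34 (SE, 95% interval −1.67 to −0.25, limma adjusted p = 0.0479). All 4 CARPXRKO values lay below all 6 CARKO values, as for 6.10% of the 82 probes, and 22.0% of probes passed the threshold in this comparison, 9.76% as lower. The choice of probes asked for loss of the rise in CARKO and CARPXRKO alike, so this test is not independent of it. The interval also leaves out variation between pools. The normalized log2 Cy3 level of Mm037 was 10.21 in the CARPXRKO pool and 9.60 in the CARKO pool. Its Cy5 level was 9.52 in CARPXRKO and 9.87 in CARKO. The part of the pools in this difference was not tested. Mm016 differed by −0.31 ± 0.28 (95% interval −0.90 to 0.28, limma adjusted p = 0.54), at −0.19 in CARPXRKO against 0.12 in CARKO, which did not pass. Its difference was −0.59 without CARPXRKO 1 and −0.16 without CARKO 5. The call of Mm037 is close to the threshold. Its adjusted p in limma was 0.106 with 1 spot of CARPXRKO 4 left out, and it held in 6 of 20 fits that each left out 1 array (WT 1, 2, 3 or 6, PXRKO 2 or CARKO 5), the difference staying between −1.07 and −0.74. Of the 21 alternatives that left out no single array, which include the left-out spot, the call held under 9, with differences from −1.66 to −0.70. Among these the adjusted p in limma was 0.0045 with only the arrays compared fitted and 0.011 with scale normalization. With slide position as a block the adjusted p in limma was 0.059, and within odd-numbered and within even-numbered arrays, which lie in different positions on the slide, the differences were −0.70 and −1.23 (adjusted p = 0.57 and 0.10).

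The change made by PXR loss was also set against itself between CAR-deficient and CAR-bearing livers, as the difference of CARPXRKO minus CARKO from PXRKO minus WT. It also equals the gap between the differences made by CAR loss, CARPXRKO minus PXRKO and CARKO minus WT. The choice of probes used those differences, so the interaction test is not independent of that choice. This interaction was −0.65 ± 0.40 for Mm016 and −0.85 ± 0.48 for Mm037 (SE), and neither passed (limma adjusted p = 0.34 and 0.31), while 12.2% of the 82 probes did (8.54% with a positive and 3.66% with a negative value). The 95% intervals were −1.48 to 0.19 and −1.85 to 0.16, and they too leave out variation between pools. That the fall of Mm037 with PXR loss differs between livers with and without CAR was thus not shown. Centred on calibration spots both passed, at −2.29 and −2.70 (limma adjusted p = 0.015 and 0.014), and the 82 probes then had a median of −1.40. Of these 82 probes 54 passed in that setting, all with a negative value.

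The 2 probes were compared on the same arrays, a measure that any shift of a whole array leaves unchanged. Mm037 minus Mm016 was −0.50 ± 0.52 in CARPXRKO (SD, n = 4, Mm037 lower on 4 of 4 arrays), and the exact two-sided sign-flip permutation test gave p = 0.125, the smallest that 4 arrays allow (adjusted p = 0.50 over 4 genotypes). In CARKO it was 0.15 ± 0.56 with Mm037 higher on 5 of 6 arrays (exact p = 0.53, adjusted p = 0.71). It was −0.23 ± 0.69 in PXRKO, with Mm037 higher on 2 of 4 (exact p = 0.75, adjusted p = 0.75), and 0.22 ± 0.63 in WT, with Mm037 higher on 2 of 6 (exact p = 0.50, adjusted p = 0.71). With 6 arrays the smallest possible exact p is 0.031, so no genotype could have passed 0.05 after adjustment over the 4, and the test cannot show whether the probes differ in size of response.

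Across the 6 WT arrays the ratios of Mm016 and Mm037 had a Pearson r of 0.72 (exact permutation p = 0.097) and a Spearman rho of 0.83 (exact p = 0.058). Adjusted over the 2 genotypes with 6 arrays these p-values were 0.097 and 0.117, so neither passed. Without the arrays farthest from the Mm016 median, WT 5 and WT 6, r was 0.61. Across the 6 CARKO arrays r was −0.83 (exact p = 0.072, adjusted p = 0.097) and rho −0.54 (exact p = 0.30). Without CARKO 5 and CARKO 2, the arrays farthest from the Mm016 median, r was −0.84. Without CARKO 5 alone the CARKO r was −0.12, and with calibration centring it was 0.90, so its sign differed between centrings. Odd and even replicates hold 3 arrays each, too few for a value within a slide position.

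Other probes with a similar pattern were ranked by the Pearson r of their log2 ratios with each probe over at least 16 arrays, as a description that carries the genotype differences and the shared array, pool and normalization. For Mm016 the 5 highest of 81 were Mm038 (0.79, 18 arrays), Mm039 (0.78, 18 arrays), Mm050 (0.73), Mm037 (0.69) and Mm036 (0.63, 20 arrays each). For Mm037 they were Mm007 (0.88), Mm008 (0.86), Mm027 (0.80) and Mm036 (0.80), over 20 arrays each, and Mm038 (0.79, 18 arrays), with Mm016 in place 11 (0.69). The median r over the 81 other probes was −0.015 for Mm016 and −0.0022 for Mm037.

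When the genotype means were removed first, so that only differences between livers of the same genotype remained, the nearest probes to Mm037 were Mm036 (0.69), Mm008 (0.68), Mm007 (0.66), Mm027 (0.64) and Mm119 (0.63, 19 arrays). For Mm037, 4 of the 5 probes were therefore on both lists. For Mm016 the nearest were Mm155 (0.58), Mm054 (0.58), Mm017 (0.55), Mm125 (0.52, 16 arrays) and Mm068 (0.51), none of which was on its first list. Within genotypes Mm037 stood in place 19 for Mm016 (r = 0.33). Mm007, Mm008, Mm027 and Mm036 averaged −0.57, −0.52, −0.49 and −0.21 in CARPXRKO, so like Mm037 they were below 0 there, against 0.69, 0.41, 0.48 and 0.29 in WT. Mm050 averaged −0.14 in CARPXRKO, −0.15 in CARKO, 1.13 in PXRKO and 1.16 in WT. The means of Mm016 were −0.19, 0.12, 1.18 and 0.84 in the same genotypes, close to those of Mm050 in PXRKO but lower in WT.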

How the data were processed

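RNA of 20 treated livers and of vehicle pools, taken as 1 per genotype, was measured on 2-colour arrays, grouped and numbered as their titles state. Per the file headers, the deposited scanner tables hold each spot's median foreground intensity, its local background intensity with SD and its percent of saturated pixels in both channels, together with a flag score per spot that the deposited tables do not explain. The authors' deposited value table holds log2 ratios. Their scale and direction were checked against the scanner ratios of the same array (Pearson r 0.81 to 0.995, slopes 0.85 to 1.15), while their centring (column medians −1.02 to 0.65) is unknown. The image software is not given in the sources used here.

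Intensities were background-corrected with normexp (offset 50) and normalized by global loess within arrays, with control and flagged spots at weight 0 (limma 3.58.1, R 4.3.3). Flagged spots, 0 to 247 per array, were then dropped and the spots of a probe averaged. One linear model with a mean per genotype was fitted to the 82 probes with values on at least 3 arrays of each genotype, with eBayes (3.12 prior and 16 residual degrees of freedom) and Benjamini-Hochberg adjustment over these probes at 0.05. Differences between the 2 probes on the same arrays, and their correlation, were tested within each genotype by exact two-sided permutation tests. Single-channel levels came from Aquantile normalization. The linear model was tested on simulated ratios with independent noise and shifts in PXRKO larger than the loess-normalized differences of the 2 probes. That simulation covers neither normalization nor shared pools, nor differences of the sizes seen here. The number of arrays limits the precision. Labels do not say how often RNA was extracted, and each pool counts as 1 control sample.

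The 2 probes, the alternatives and the choice of which other probes to name (the 2 probes, and for each the 5 most similar by Pearson r, with and without genotype means) were chosen with earlier results of these data known. Alternatives covered background correction, normalization, spot filters, the deposited log2 table, position, replicate numbers and left-out arrays.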

Additional observations from a re-analysis of the deposited data

Results flagged for a closer look

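On CARKO 5 the Mm016 log2 ratio was 0.87, while the other 5 CARKO arrays lay between −0.14 and 0.15. The gap to the nearest array was 0.71 of the whole range, above Dixon's limit for 6 arrays. Before normalization Mm016 was at −0.49 on this array, and the loess curve moved it by 1.36.

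On PXRKO 2 the Mm037 log2 ratio was 0.42, while the other 3 PXRKO arrays lay between 1.12 and 1.15, a gap of 0.97 of the range. Mm016 was at 1.43 on the same array. Chance flags about 1 in 20 groups, and 8 groups were examined.

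The Mm037 response was lower in CARPXRKO than in CARKO, with a log2 difference of −0.96 (limma adjusted p = 0.0479). In this comparison 22.0% of the 82 probes passed. The call held in 6 of 20 fits that each left out 1 array and under 9 of 21 alternatives. The Cy3 level of Mm037 was highest in the CARPXRKO pool (log2 10.21) and lowest in the CARKO pool (9.60), and its part in the difference was not tested.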

How the results depend on the processing

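The number of arrays, and the 1 pool assumed per genotype, limit these results. Of the alternatives that left out no single array, 428 results kept their direction and side of the threshold or stayed within the spread, 29 moved, 12 lost a call, 5 gained one and 8 changed sign; the cause was not tested. A slide or scan block was not run because no file names one, and fitting only the arrays compared gives no interaction.

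Centring on calibration spots gave Mm016 responses of 1.91 in PXRKO and 0.36 in WT, CARPXRKO minus PXRKO of −2.26, CARKO minus WT of 0.032, PXRKO minus WT of 1.55 and an interaction of −2.29. For Mm037 it gave responses of 0.56 in CARKO (0.48 with scale normalization) and 1.67 in PXRKO, CARPXRKO minus PXRKO of −2.78 (−2.41 in the authors' deposited table), CARKO minus WT of −0.079 and an interaction of −2.70. PXRKO minus WT of Mm037 turned positive with median centring (0.18), calibration centring (1.04), the authors' deposited table (0.69), without the 4 arrays of conflicting text (0.11) and in odd replicates (0.17), and without WT 3 (0.042), WT 6 (0.12) or PXRKO 2 (0.064).

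The Mm037 call for CARPXRKO minus CARKO was lost with no background correction (−0.85), median centring (−1.01), print-tip loess (−0.996), calibration centring (−1.66), the median over spots (−0.80), the authors' deposited table (−1.36), 1 spot left out (−0.78), no conflicting arrays (−0.99), odd (−0.70) or even replicates (−1.23) and slide position as a block (−0.96). With replicate number as a block it was −0.85 (limma adjusted p = 0.14), and no other call of these probes changed under that block. Same-numbered arrays did not deviate together (26 pairs, r −0.50 to 0.31, median 0.070, and 1 of 20 arrays best matched by its own number).

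Probes past the threshold numbered 3 for PXRKO minus WT, but 8 with background subtraction, 15 with median centring, 6 with print-tip loess, 30 with calibration centring, 6 with flagged spots kept and 6 with dim spots dropped. In limma 0 passed in the authors' deposited table and in odd or even replicates, where 14, 14 and 9 had an unadjusted p under 0.05. For CARPXRKO minus CARKO 18 passed, but 1 with calibration centring, 28 with flagged spots kept, 9 with dim spots dropped, 1 in the authors' deposited table, 10 without conflicting arrays and, in limma, 0 in odd replicates (11 unadjusted). For the interaction 10 passed, but 54 with calibration centring, 18 with flagged spots kept, and in limma 0 in the authors' deposited table and in odd or even replicates (12, 11 and 11 unadjusted).

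Mm037 minus Mm016 in CARKO was −0.038 in odd replicates. The WT correlation was 0.94 with calibration centring and 0.93 in the authors' deposited table, and the CARKO correlation 0.90 with calibration centring.

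Leaving out 1 array at a time, Mm037 PXRKO minus WT ran from −0.36 (without WT 1) to 0.12, and CARPXRKO minus CARKO from −1.07 (without CARPXRKO 2) to −0.74 (without CARPXRKO 4), with limma adjusted p from 0.016 to 0.21. Mm037 minus Mm016 in PXRKO ran from −0.49 (without PXRKO 4) to 0.035 (without PXRKO 2). The CARKO correlation ran from −0.90 (without CARKO 2, exact permutation adjusted p = 0.033) to −0.12 (without CARKO 5). Probes past the threshold ran from 1 (without PXRKO 3 or 4) to 13 (without PXRKO 2) for PXRKO minus WT, with 5 without WT 3 or WT 5. They ran from 13 to 19 for CARPXRKO minus CARKO, and for the interaction from 5 (without PXRKO 3) to 16 (without PXRKO 2 or CARKO 5), with 6 without PXRKO 4 or CARPXRKO 3.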
